A study of Macaca mulatta with 6 samples.

Results

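The dual specificity phosphatases DUSP1, DUSP4, DUSP5, DUSP6, DUSP8 and DUSP10, the Sprouty genes SPRY2 and SPRY4 and the Spred genes SPRED1 and SPRED2 restrain the MAP kinase cascades, and their transcripts are described here in RF/6A cells exposed to human serum. The 10 genes, of 24932 in the deposited table, are a list of named negative regulators of these cascades that was drawn up with earlier results of these data known. Of these, 9 were found by symbol, and SPRY2 was found under a gene identifier that a table of gene names ties to it. All 10 passed the filter on low values, a mean of at least 1 FPKM over the libraries. The table places DUSP1 and SPRY4 on chromosome 6, DUSP4 on 8, DUSP5 on 9, DUSP6 on 11, DUSP8 on 14, DUSP10 on 1, SPRY2 on 17, SPRED1 on 7 and SPRED2 on 13, in a macaque build that the sources used here do not name.

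The MAP kinases ERK, JNK and p38 are switched on when kinases add phosphate to their activation loop, and the dual specificity phosphatases take that phosphate off again. Several of these phosphatases, and the Sprouty and Spred proteins, are themselves transcribed in response to ERK signalling and so form a feedback loop that limits the strength and length of the signal. Sprouty proteins act between growth factor receptors and Ras, and Spred proteins bring the Ras inactivator neurofibromin to the membrane and also hinder Raf. In endothelial cells, Sprouty and Spred proteins are known as brakes on growth factor driven sprouting.

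RF/6A is a rhesus macaque line, labelled as choroidal endothelial. The cells were grown to confluency on porous inserts and kept for 4 hours in 50% human serum. The control group (3 libraries) received heat-inactivated serum, in which complement has been destroyed, and the other group (3 libraries) received normal serum, in which complement is active and can form the membrane attack complex. All 6 libraries come from cells of 1 line without genetic change named in the labels, and every cell received human serum, so neither group is free of serum. Anything else that heating changes in serum cannot be told apart from complement. The labels do not state whether replicates are separate cultures, and the p-values rest on library-to-library spread alone, which may be technical.

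Levels are given in FPKM, fragments scaled for transcript length and library depth. Depth, read from the step that 1 fragment adds to low values, lay between 14300000 and 17800000 fragments per library. In replicates 2 and 3 of both treatments 100% of those low values were whole multiples of 1 fragment within 0.1 fragments. In the replicate 1 libraries 50% (heat-inactivated serum) and 45.2% (normal serum) were, so these stand apart and their depths are approximate. Of 16 endothelial markers found, 6 reached a mean of 1 FPKM, and CDH5, the endothelial cadherin, was listed at 0 in the control and at a mean of 0.0110 FPKM in normal serum. KDR and TEK, the receptors of VEGF and of angiopoietins, had means of 0.370 and 0.0930 FPKM in the control and 0.105 and 0.0457 FPKM in normal serum. Other endothelial markers were measured at higher levels, with means of 61.2 and 74.2 FPKM for ENG, 14.5 and 16.98 for FLT1, 6.58 and 12.2 for FLI1, 5.47 and 6.21 for EGFL7, 3.35 and 7.95 for PECAM1 and 2.63 and 4.91 for ESAM (control, then normal serum). The markers thus gave a mixed picture, with CDH5, KDR and TEK at or near 0, and the cells are called RF/6A here. The summed endothelial markers lay between 94.2 and 95.2 FPKM in the control and between 120 and 129 FPKM in normal serum, and ENG carried most of that sum. The summed level of 11 fibroblast and mural markers lay between 7917 and 8423 FPKM in the control and between 4669 and 4920 FPKM in normal serum. COL1A1 (means 3870 and 2026 FPKM) and COL3A1 (1888 and 795.5 FPKM) carried most of that sum. Of the 11 markers 8 were lower in every normal serum library than in every control library, and 3 were higher (CSPG4 at 14.5 and 40.9 FPKM, TAGLN at 1013 and 1367, THY1 at 156 and 209). Retinal pigment epithelium markers (8 found, 1 with a mean of at least 1 FPKM, OTX2 listed at 0 throughout) and leukocyte markers (6 found, 3 with such a mean, PTPRC at 0.0235 and 0.00532 FPKM) summed to similar ranges in both groups, 37.98 to 42.3 against 37.2 to 44.3 FPKM and 14.4 to 19.0 against 13.5 to 16.2 FPKM. PMEL carried most of the pigment epithelium sum, with means of 38.3 and 39.0 FPKM (control, then normal serum). The leukocyte sum came mostly from LYZ (7.82 and 5.17 FPKM), CD68 (7.32 and 8.62) and CD14 (1.45 and 1.10). The part of these marker shifts in the results below was not tested. In bulk RNA, fewer cells of a type and less RNA per cell cannot be told apart.

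Normal serum went with higher levels of most of these inhibitors. Of the 10 genes 8 were higher, 1 was lower (SPRED1) and 1 did not pass the test (DUSP8). The test was limma on log2(FPKM + 1) across 11818 genes, with an adjusted p under 0.05 counted as a call. Of all genes tested 54% were called, 27.8% higher and 26.1% lower, so a call by itself is common here. Higher genes made up 51.6% of all calls, and 34.7% when libraries were scaled to a common total FPKM, a scaling that moved the median log2 change of all genes from 0.01 to -0.12. The 9 called genes kept their calls and directions under that scaling. The groups did not overlap for 9 of the 10 genes, against 62.6% of all genes tested. A called rise of at least 2-fold on this scale was found for 6 of the 10 genes (DUSP1, DUSP5, DUSP10, SPRY2, SPRY4 and SPRED2), against 3.47% of all genes tested. With a pseudocount of 5 in place of 1, which shrinks changes of low genes, that number was 3, and it was 4 with libraries scaled to a common total FPKM, without control replicate 3 or without normal serum replicate 1. The median log2 change was 1.03 for the 10 genes and 0.01 for all genes tested. Because the list was made with results known, these figures describe the 10 genes and are not independent evidence about them.

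**Figure D1:**
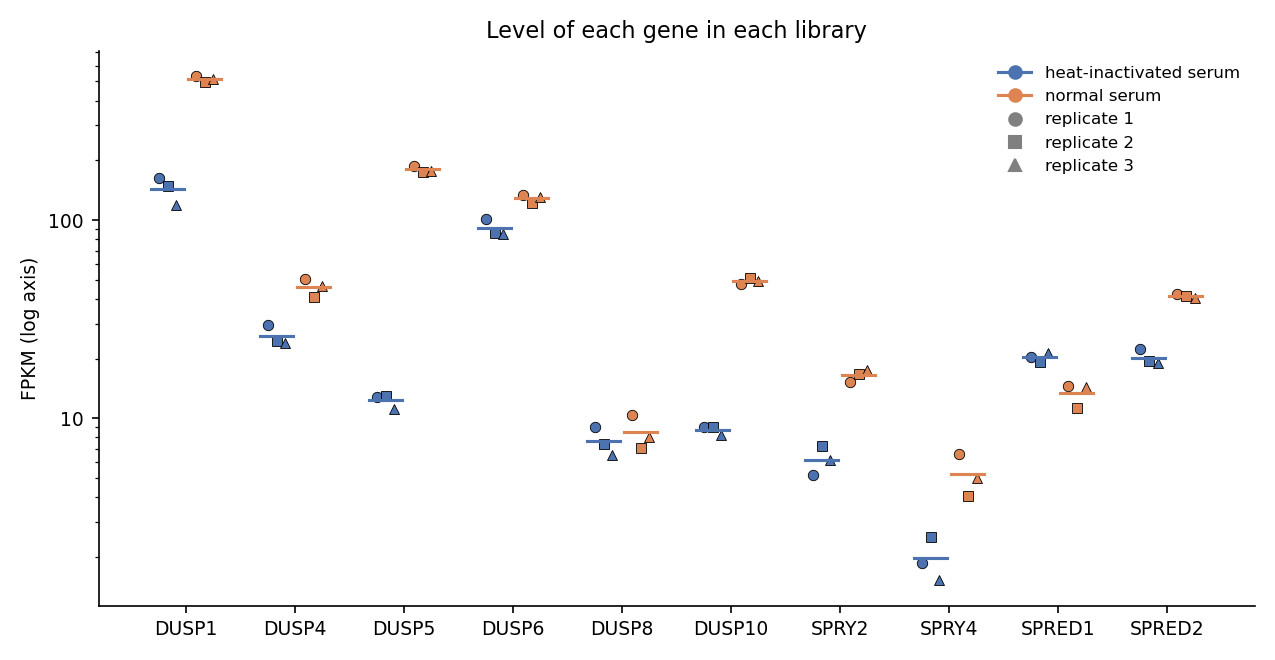
FPKM of each gene in each library on a log axis. Blue marks are heat-inactivated serum, orange marks are normal serum, symbol shapes are replicates and bars are means of 3 libraries. The groups are separate for every gene except DUSP8, and SPRED1 is the gene whose normal serum marks lie below the control.

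Among the inducible phosphatases of the nucleus, DUSP5 had the largest change. DUSP5 acts on ERK and holds it in the nucleus, and it had 12.8, 13.0 and 11.2 FPKM in the control and 188, 176 and 176 FPKM in normal serum (replicates 1 to 3). Every normal serum library was thus far above every control library. The mean went from 12.3 ± 1.01 to 180 ± 7.13 FPKM (SD, n = 3), a 14.6-fold ratio of means, and the log2 change was 3.76 (95% confidence interval 3.59 to 3.93, adjusted p = 2.12e-07, limma). By size of rise DUSP5 held place 16 among the 11818 genes tested.

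DUSP1, an immediate early phosphatase that acts on p38 and JNK as well as ERK, was the most abundant of the 10 genes in both groups. It had 164, 148 and 119 FPKM in the control and 533, 497 and 515 FPKM in normal serum. The control libraries were more spread, with a coefficient of variation of 15.9% against 3.52% in normal serum, and replicate 3 was the lowest of them. The mean rose 3.59-fold, from 143 ± 22.8 to 515 ± 18.1 FPKM, a log2 change of 1.85 (1.59 to 2.11, adjusted p = 2.33e-05, limma).

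DUSP4, a nuclear phosphatase of ERK and JNK, moved less. It had 29.4, 24.6 and 24.0 FPKM in the control and 50.1, 41.1 and 46.6 FPKM in normal serum, and the lowest normal serum library was above the highest control library. The ratio of means was 1.77 and the log2 change 0.80 (0.56 to 1.04, adjusted p = 6.10e-04, limma). The intervals of the log2 changes of DUSP4, DUSP1 and DUSP5 did not overlap one another. The differences between these genes were not tested.

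DUSP6, the phosphatase of the cytoplasm that is selective for ERK, was already high in the control. It had 101, 86.2 and 85.0 FPKM there and 134, 122 and 131 FPKM in normal serum. The groups were separate, but the ratio of means was 1.42 (90.9 ± 9.18 to 129 ± 6.16 FPKM), with a log2 change of 0.51 (0.31 to 0.70, adjusted p = 0.00175, limma). After quantile normalization the log2 change of DUSP6 was 0.31 (adjusted p = 0.0230), still a call. Its highest adjusted p under any alternative was 0.0368 (limma), with libraries scaled to a common total FPKM (log2 change 0.36). With every library scaled to 1 common total over transcripts of at least 300 bases, the log2 change was 0.34 (adjusted p = 0.0123).

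The phosphatases that prefer JNK and p38 differed from each other. DUSP10 had 9.05, 9.01 and 8.23 FPKM in the control and 47.7, 51.0 and 49.4 FPKM in normal serum, the tightest pair of groups among the phosphatases by coefficient of variation (5.25% and 3.29%). Its mean rose 5.63-fold, a log2 change of 2.37 (2.22 to 2.52, adjusted p = 8.56e-07, limma), place 69 by size of rise among all genes tested.

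DUSP8 had 9.02, 7.40 and 6.55 FPKM in the control and 10.4, 7.08 and 8.06 FPKM in normal serum. The groups overlapped, and normal serum replicate 2 was below control replicate 1 and control replicate 2. The log2 change was 0.13 (-0.23 to 0.49, adjusted p = 0.491, limma), so the interval does not reach a 2-fold change in either direction. Its sign turned without normal serum replicate 1, the highest DUSP8 library (log2 change -0.01), and with the scaling to a common total over transcripts of at least 300 bases (-0.02). The DUSP8 transcript is short, 918 bases, and its values rested on 70.1 to 109 fragments per library.

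**Figure D2:**
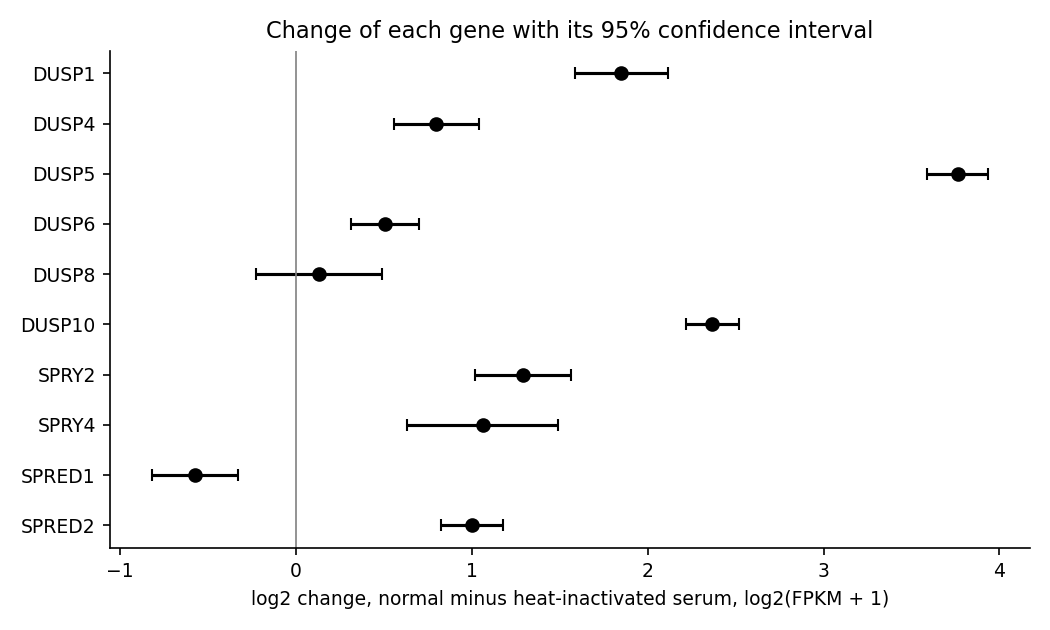
Log2 change of each gene, normal minus heat-inactivated serum, on the log2(FPKM + 1) scale, with its 95% confidence interval from limma. Points run from -0.57 (SPRED1) to 3.76 (DUSP5), and the DUSP8 interval alone spans 0.

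The make-up of the phosphatase transcripts shifted. FPKM are per length, so levels of different genes were summed, which relies on the transcript lengths listed. Whether those lengths are complete was not tested. The 6 phosphatases summed to 325, 288 and 254 FPKM in the control and to 963, 894 and 926 FPKM in normal serum, 3.21 times the control mean. DUSP5 supplied 4.29 ± 0.308% of that sum in the control and 19.4 ± 0.342% in normal serum (SD, n = 3), while the share of DUSP6 was 31.6 ± 1.83% and then 13.9 ± 0.228%. DUSP1 supplied the largest share in every library, from 46.8% to 51.3% in the control and from 55.3% to 55.6% in normal serum. In the control the order of levels was DUSP1, DUSP6, DUSP4, DUSP5, DUSP10 and DUSP8, and DUSP10 and DUSP8 overlapped. In normal serum it was DUSP1, DUSP5, DUSP6, DUSP10, DUSP4 and DUSP8, and DUSP10 and DUSP4 overlapped (47.7 to 51.0 and 41.1 to 50.1 FPKM). No test was made of these shares.

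**Figure D3:**
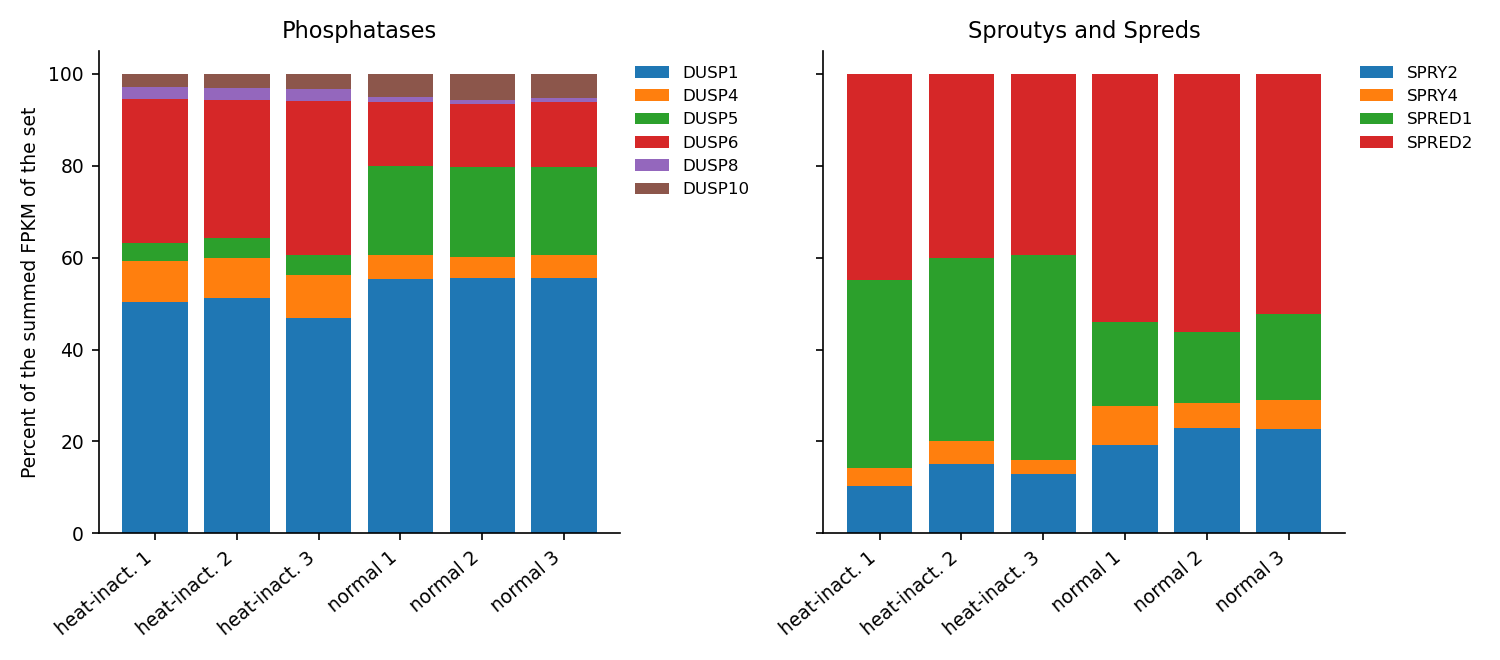
Percent of the summed FPKM supplied by each gene in each library, for the 6 phosphatases (left) and the 4 Sprouty and Spred genes (right). In normal serum the DUSP5 segment is between 19.0% and 19.6% in place of 3.94% to 4.53%, and the SPRED1 segment is between 15.3% and 18.6% in place of 39.7% to 44.5%.

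Both Sprouty genes were higher in normal serum. SPRY2, which blocks growth factor receptors from activating Ras, had 5.17, 7.28 and 6.14 FPKM in the control and 15.2, 16.8 and 17.5 FPKM in normal serum. All normal serum libraries lay above all control libraries. The ratio of means was 2.66 and the log2 change 1.29 (1.02 to 1.56, adjusted p = 1.24e-04, limma).

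SPRY4, a relative of SPRY2, was the lowest of the 10 genes in both groups. It had 1.86, 2.52 and 1.52 FPKM in the control and 6.61, 4.04 and 5.02 FPKM in normal serum. The groups were separate, although SPRY4 had the widest relative spread of the 10 genes, with coefficients of variation of 25.7% and 24.8%. The ratio of means was 2.66 and the log2 change 1.06 (0.64 to 1.49, adjusted p = 0.00223, limma). With a pseudocount of 5 the log2 change of SPRY4 was 0.55 (adjusted p = 0.00272). Its main transcript rested on 42.1 to 61.0 fragments per control library and 123 to 181 per normal serum library.

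The Spred genes moved in opposite directions. SPRED2 had 22.3, 19.5 and 18.9 FPKM in the control and 42.5, 41.3 and 40.4 FPKM in normal serum, and its mean rose 2.05-fold (log2 change 1.00, 0.83 to 1.18, adjusted p = 5.37e-05, limma). SPRED1, which carries neurofibromin to the membrane, had 20.4, 19.3 and 21.2 FPKM in the control and 14.5, 11.2 and 14.4 FPKM in normal serum, and all normal serum libraries were below all control libraries. Its mean fell from 20.3 ± 0.991 to 13.4 ± 1.88 FPKM, to 66.0% of the control (log2 change -0.57, -0.82 to -0.33, adjusted p = 0.00294, limma). Of all genes tested 11.6% had a lower log2 change than SPRED1.

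In the control SPRED1 and SPRED2 stood at the same level, with overlapping ranges (19.3 to 21.2 and 18.9 to 22.3 FPKM). Together they supplied most of the summed level of the 4 listed Sprouty and Spred genes, 41.7 ± 2.46% and 41.5 ± 2.88%. That sum leaves out SPRY1, a Sprouty gene outside the list, with means of 23.3 FPKM in the control and 16.1 FPKM in normal serum. The shares and sums given here therefore depend on which genes were listed. In normal serum SPRED2 supplied 54.1 ± 2.02%, SPRY2 21.6 ± 2.04% and SPRED1 17.5 ± 1.87%. SPRED1 thus went from above SPRY2 in every control library to below it in every normal serum library. The 4 genes summed to 48.7 ± 0.954 FPKM in the control and 76.6 ± 2.84 FPKM in normal serum, 1.57 times the control mean.

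These calls did not rest on the replicate 1 libraries. Within replicates 2 and 3 alone the same 9 genes were called in the same directions, with log2 changes of 1.93 for DUSP1, 0.82 for DUSP4, 3.76 for DUSP5, 0.56 for DUSP6, 2.41 for DUSP10, 1.24 for SPRY2, 0.89 for SPRY4, 1.05 for SPRED2 and -0.63 for SPRED1. DUSP8 was at 0.10 there (adjusted p = 0.461, limma).

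At the level of transcripts, 6 genes had 1 transcript in the table and DUSP4, DUSP6, DUSP10 and SPRY4 had 2 each. Fragments that fit several transcripts are divided among them by estimation, so a short transcript is less certain than its gene. Of 15719 transcripts with a mean of at least 1 FPKM, 39.6% were called by limma. Both DUSP10 transcripts were called. The long one, of 2583 bases, went from 6.71 ± 0.457 to 40.2 ± 3.17 FPKM (adjusted p = 3.02e-05), and the short one, of 992 bases, from 2.05 ± 0.853 to 9.21 ± 4.37 FPKM (adjusted p = 0.0201). In normal serum replicate 1 the short DUSP10 transcript stood at 4.19 FPKM against 11.2 and 12.2 in replicates 2 and 3, while the long one was highest in replicate 1, at 43.5 FPKM against 39.7 and 37.2. The gene's sum was therefore steadier than its parts.

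Both DUSP6 transcripts were called too. The one of 2769 bases went from 76.7 ± 6.25 to 102 ± 1.41 FPKM (log2 change 0.41, adjusted p = 0.00543) and the one of 2228 bases from 14.2 ± 3.64 to 27.5 ± 5.24 FPKM (log2 change 0.92, adjusted p = 0.0168). The shorter one supplied 15.6% of the DUSP6 level in the control and 21.3% in normal serum, a difference that was not tested. The second transcripts of DUSP4 (909 bases) and SPRY4 (321 bases) were below the filter and listed at 0 in several libraries. The SPRY4 one stood at 2.07 FPKM in normal serum replicate 1, at 1.28 FPKM in control replicate 2 and at or near 0 in the others. Without it, the main SPRY4 transcript had separate groups and less spread, 1.54 ± 0.313 and 4.54 ± 0.492 FPKM (log2 change 1.13, adjusted p = 0.00182).

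**Figure D4:**
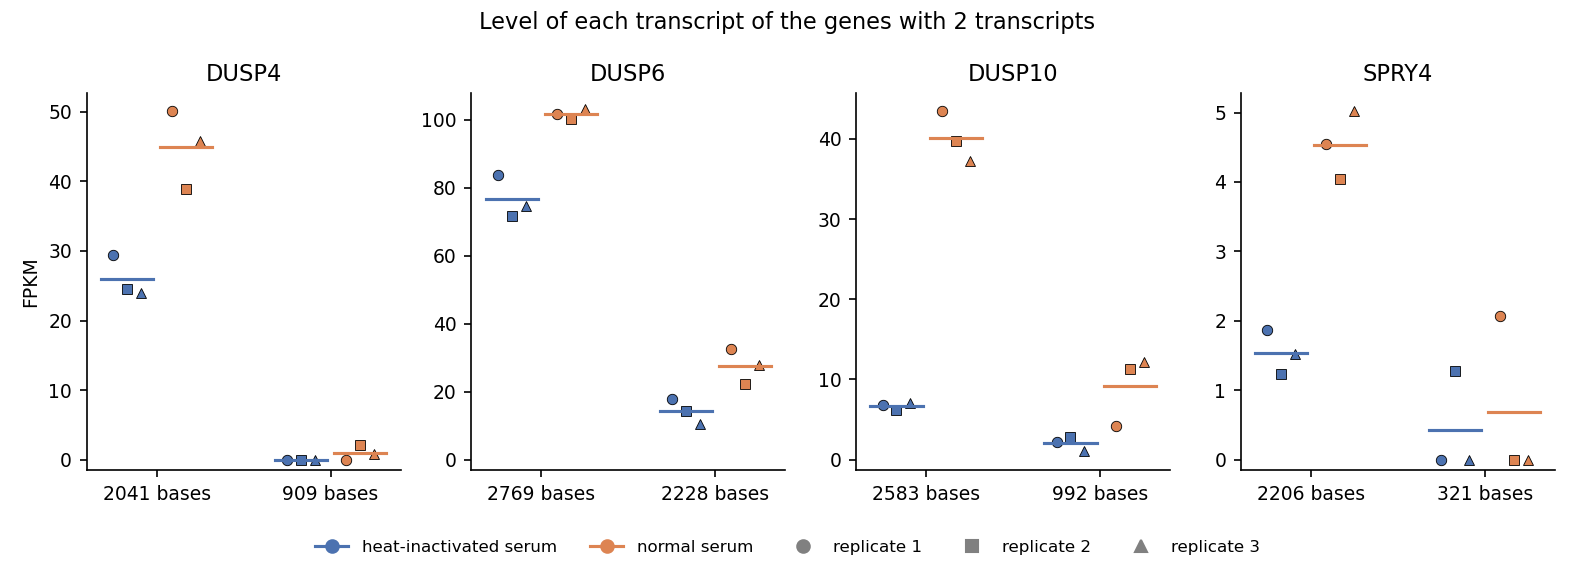
FPKM of each transcript of the 4 genes with 2 transcripts, by library, with transcript length below. Bars are means of 3 libraries. The long transcripts carry most of each gene's level, and their groups are separate in all 4 genes.

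In the authors' deposited table of the same comparison, the main transcripts of 9 genes passed the authors' q-value mark, each with q = 2.23e-04, and DUSP8 did not (q = 0.345). These 9 transcripts also shared the same authors' p-value (5e-05, Cuffdiff), so their q-values do not rank them. No second transcript passed the authors' q-value mark. Those of DUSP6 (authors' q = 0.00606) and DUSP10 (authors' q = 0.00912) thus failed it, although limma called both. That table's log2 fold changes, which carry no pseudocount, were 3.86 for DUSP5, 2.58 for the long DUSP10 transcript, 1.85 for DUSP1, 1.56 for the main SPRY4 transcript, 1.41 for SPRY2, 1.03 for SPRED2 and -0.60 for SPRED1. Those of DUSP4 (0.79), SPRED1 and the long DUSP6 transcript (0.41) did not pass the authors' mark for fold change in the deposited table.

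The rest of the same families was mixed. Of 8 further MAP kinase phosphatase, Sprouty and Spred family genes, 5 could be tested, of which 2 were higher and 2 lower, with a median log2 change of -0.22. DUSP7, which like DUSP6 acts on ERK in the cytoplasm, rose from 21.5 ± 0.733 to 42.1 ± 1.77 FPKM (log2 change 0.94, adjusted p = 3.24e-05, limma). SPRED3 was low and rose from 1.00 ± 0.321 to 1.84 ± 0.374 FPKM (adjusted p = 0.0319, limma), a call that was not stable. It was lost with replicates 2 and 3 only (adjusted p = 0.0723) and with libraries scaled to a common total of all or of longer transcripts (adjusted p = 0.0749 and 0.0724). It also ended without control replicate 1 (adjusted p = 0.0917), control replicate 3 (0.0832), normal serum replicate 2 (0.0680) or normal serum replicate 3 (0.0967).

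SPRY1 went the other way from SPRY2 and SPRY4. It stood at 27.8, 21.6 and 20.5 FPKM in the control and 15.4, 16.3 and 16.5 FPKM in normal serum, and its mean fell to 0.689 of the control (log2 change -0.50, adjusted p = 0.00770, limma). In the control SPRY1 was above SPRY2 in every library, and in normal serum the ranges of SPRY1 and SPRY2 overlapped. DUSP16, a phosphatase that prefers JNK, fell from 12.7 ± 0.542 to 9.40 ± 0.976 FPKM (log2 change -0.40, adjusted p = 0.00669, limma). DUSP2, named after its values were seen, was listed at 0 in all libraries.

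Atypical dual specificity phosphatases, which lack the domain that docks MAP kinases, showed no shared direction. Of 14, 8 were tested, with 3 higher, 3 lower and a median of 0.00 on the log2 scale. DUSP14 rose from 21.7 ± 1.94 to 83.7 ± 5.45 FPKM (log2 change 1.90, adjusted p = 5.37e-06, limma), while DUSP23 fell from 15.1 ± 0.541 to 9.70 ± 0.380 FPKM (log2 change -0.59, adjusted p = 3.23e-04). Taking only the highest transcript of DUSP23 ended its call (adjusted p = 0.0764). DUSP11 and DUSP12 had log2 changes of 0.46 and 0.30 (adjusted p = 0.00307 and 0.00305), and scaling the libraries to a common total FPKM ended both calls (adjusted p = 0.0532 and 0.180).

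Of 8 other phosphatases that act on MAP kinases, 5 were tested, with 2 higher, 1 lower and a median log2 change of 0.24. The catalytic subunits of phosphatase 2A, PPP2CA and PPP2CB, rose 1.40-fold and 1.35-fold in mean FPKM (adjusted p = 3.79e-04 and 9.56e-04, limma). With quantile normalization their log2 changes, 0.48 and 0.43, came to 0.29 and 0.25. PPM1B fell to 0.768 of the control mean (adjusted p = 0.00730, limma), a call that ended with only its highest transcript (adjusted p = 0.465).

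The ERK cascade, listed from receptor adaptors through ERK to kinases below it, had a median change near 0. Of 21 genes of the ERK cascade 20 were tested, with 6 higher, 5 lower and a median log2 change of -0.06. MAP2K1, the kinase that activates ERK, rose from 71.3 ± 2.47 to 128 ± 4.72 FPKM (log2 change 0.84, adjusted p = 3.92e-05, limma). MAPK3, which encodes ERK1, fell from 29.9 ± 0.823 to 20.7 ± 1.23 FPKM (log2 change -0.51, adjusted p = 5.88e-04, limma). The adaptor SHC1 and the phosphatase PTPN11, which link receptors to Ras, fell by 0.35 and 0.59 on the log2 scale (adjusted p = 0.00103 and 0.00133, limma), and the SHC1 change was -0.62 after quantile normalization.

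The JNK and p38 cascades also moved both ways, with 3 of 13 tested genes higher, 4 lower and a median of -0.09. MAP2K3, a kinase that activates p38, rose from 51.6 ± 2.58 to 173 ± 5.53 FPKM (log2 change 1.72, adjusted p = 2.11e-06, limma). The p38 genes MAPK14 and MAPK12 fell by 0.72 and 0.66 on the log2 scale (adjusted p = 3.79e-04 and 2.35e-04, limma), and MAPK14 had -0.45 with only its highest transcript. MAPKAPK2, a kinase that p38 activates, rose 1.40-fold in mean FPKM (adjusted p = 4.03e-04, limma), and its log2 change of 0.48 was 0.29 after quantile normalization.

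Ras GTPase activating proteins, which switch Ras off, were called in all 7 tested cases, 5 higher and 2 lower, with a median log2 change of 0.52. RASA3, RASA2 and RASA1 had log2 changes of 0.67, 0.65 and 0.55 (adjusted p = 7.64e-05, 0.00118 and 0.00130, limma). With a pseudocount of 5 the change of RASA2 was 0.36. NF1, the neurofibromin gene and partner of the Spred proteins, was named with its values known and fell from 9.84 ± 0.230 to 7.16 ± 0.634 FPKM (log2 change -0.41, adjusted p = 0.00376, limma).

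Other negative regulators of receptor kinases were divided, with 4 of 12 higher, 3 lower and a median of 0.13. ERRFI1, a feedback inhibitor of the EGF receptor, rose from 51.2 ± 3.06 to 109 ± 2.14 FPKM (adjusted p = 1.80e-05, limma), and the adaptor DOK1, which recruits Ras inactivators, rose 1.77-fold (adjusted p = 6.84e-05). LRIG1, a membrane protein that promotes receptor breakdown, fell from 147 ± 2.69 to 58.0 ± 4.84 FPKM (log2 change -1.33, adjusted p = 1.28e-05, limma). IL17RD, a feedback inhibitor of FGF signalling, fell from 2.05 ± 0.181 to 0.498 ± 0.0225 FPKM (log2 change -1.02, adjusted p = 3.40e-04, limma), or by 1.84 and 0.36 with pseudocounts of 0.1 and 5.

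Transcripts used elsewhere as readouts of ERK activity were mostly higher, 5 of 8 tested against 2 lower, with a median log2 change of 0.75. Of 11 listed, ETV1 was not found by symbol, and EPHA4 and IER3 were below the filter. FOSL1, an AP-1 subunit, rose from 19.0 ± 2.02 to 104 ± 4.64 FPKM (log2 change 2.40, adjusted p = 2.03e-06, limma). The receptor gene EPHA2 rose 2.75-fold, cyclin D1 (CCND1) 2.06-fold and MYC 1.60-fold (adjusted p = 1.46e-05, 3.97e-05 and 1.04e-04, limma), and the MYC change of 0.67 was 0.44 after quantile normalization. The list did not move as 1 block. The ETS factors ETV4 and ETV5, named after their values were seen, fell by 0.25 and 0.27 on the log2 scale (adjusted p = 0.0116 and 0.0151, limma). EGR1, the most abundant tested gene of the list and also named after its values were seen, was not called. It had 313 ± 42.7 FPKM in the control and 302 ± 53.7 FPKM in normal serum (log2 change -0.06, adjusted p = 0.766, limma). ERK phosphorylation itself was not measured.

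**Figure D5:**
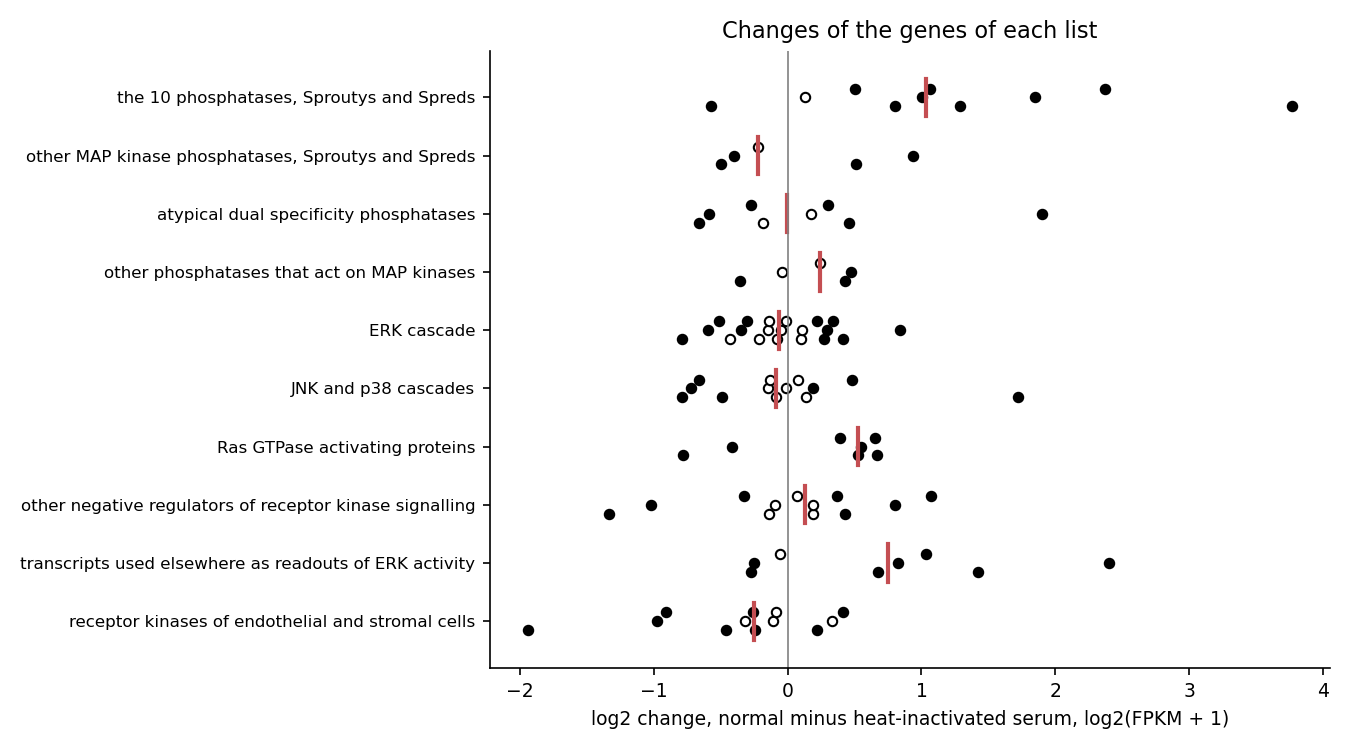
Log2 change of every tested gene of each list, normal minus heat-inactivated serum, on the log2(FPKM + 1) scale. Filled points passed an adjusted p of 0.05 (limma), open points did not, and red bars are medians, which run from -0.25 for receptor kinases to 1.03 for the 10 phosphatases, Sproutys and Spreds.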

How the data were processed

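Polyadenylated RNA of 3 libraries per treatment was measured. The submitters' processing notes name TopHat2 (2.0.7), Cufflinks (2.1.1) and Cuffdiff (2.1.1). The authors' deposited file gives, for each transcript, FPKM in every library and, per treatment, their pooled FPKM with a q-value, a p-value and a log2 fold change. No build is named in the sources used here. Of 7008 gene identifiers without a symbol, 256 took one from the name table, SPRY2 among them. For the gene tests FPKM was summed per symbol, so these do not tell isoforms apart, and transcripts were tested in a separate fit. Strand is not established. No sequences are printed.

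Genes averaging 1 FPKM or more were tested with limma 3.58.1 (R 4.3.3) on log2(FPKM + 1), with a trended variance and Benjamini-Hochberg adjustment over all genes. This scale understates changes of low genes. Errors are SD. Named were all 10 genes and up to 4 called genes per list with the smallest adjusted p. A gene that this rule names is not reported here. Members and lists were chosen with earlier results of these data known. The 20 alternatives varied pseudocount, filter, scaling, transcripts, variance, replicate block, a term for the replicate 1 libraries, and the libraries used. Of these, 1 scaling was added after seeing the data. A count of members at least 2-fold higher was added as well.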

Additional observations from a re-analysis of the deposited data

How the results depend on the processing

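The calls and directions of the 9 called genes were the same under all 20 alternatives (19 for SPRY4, which a mean of at least 5 FPKM removes). DUSP8 passed the test under none. Leaving out 1 library at a time, its log2 change ranged from -0.00661 (without normal serum replicate 1) to 0.244, and it turned to -0.0199 when libraries were rescaled to the same total of transcripts of at least 300 bases. Log2 changes ranged from 3.41 to 3.86 for DUSP5, 1.98 to 2.48 for DUSP10, 1.59 to 1.95 for DUSP1, 0.632 to 0.888 for DUSP4, 0.306 to 0.588 for DUSP6, 0.945 to 1.41 for SPRY2, 0.548 to 1.37 for SPRY4, 0.836 to 1.07 for SPRED2 and -0.734 to -0.459 for SPRED1. The number of the 10 genes at least 2-fold higher fell from 6 to 3 with a pseudocount of 5, which by construction shrinks changes of low genes. It was 4 under either rescaling, without heat-inactivated replicate 3 and without normal serum replicate 1, and 5 under quantile normalization, median of ratios scaling, a mean of at least 5 FPKM, replicates 2 and 3 alone and without heat-inactivated replicate 2. SPRED2, at a log2 change of 1.00, and SPRY4, at 1.06, lay close to the 2-fold mark. Of all genes, 3291 were called higher, against 1952 after rescaling to the same total FPKM and 2158 when only transcripts of at least 300 bases set that total. The share of calls that were higher went from 51.6% to 34.7% and 33%, and the median log2 change of all genes from 0.01 to -0.12 and -0.14. Of 35 named list genes, each run under up to 20 alternatives, none turned direction, and 12 of their values fell below the threshold. The standard errors of the log2 changes were widest for SPRY4 (0.18) and DUSP8 (0.15) and narrowest for DUSP10 (0.06).

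Replicate numbers are shared by the treatments, but deviations from the group means correlated at 0.193 for number 1, 0.0333 for number 2 and 0.00593 for number 3, and heat-inactivated replicates 2 and 3 did not correlate best with their own number. With a replicate block 6775 genes were called, against 6381, and 9 of the 10 genes.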

Other observations

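Receptor kinases, whose signals the phosphatases and Sprouty proteins limit, moved both ways. Of 12 tested, 2 were higher in normal serum and 6 lower, with a median log2 change of -0.25 against 0.01 for all genes tested. PDGFRB and PDGFRA, the receptors of platelet-derived growth factors, fell from 50.8 ± 3.64 to 12.6 ± 1.47 FPKM and from 24.8 ± 0.750 to 12.9 ± 2.36 FPKM (SD, n = 3 per group; adjusted p = 8.51e-06 and 5.86e-04, limma). Both are also among the fibroblast and mural markers, of which 8 were lower and 3 (CSPG4, TAGLN and THY1) higher in every normal serum library than in every control library. The insulin receptor gene INSR fell by 0.98 on the log2 scale (0.62 with a pseudocount of 5) and MET, the receptor of hepatocyte growth factor, fell by 0.46 (adjusted p = 1.87e-04 and 5.29e-04, limma). EGFR and FLT1, named after their values were seen, rose 1.38-fold and 1.17-fold in mean FPKM (adjusted p = 0.00481 and 0.0304, limma).

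Across the 10 inhibitors, level in the control and size of the change did not go together in a simple order. DUSP6 and DUSP1 were the most abundant in the control and had log2 changes of 0.51 and 1.85, whereas DUSP8, DUSP10 and DUSP5, at 7.66, 8.77 and 12.3 FPKM in the control, had log2 changes of 0.13, 2.37 and 3.76.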
